A study of Mus musculus with 8 samples.

Results

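The genes described here are 34 genes of protein folding, quality control and degradation in the endoplasmic reticulum, out of 18193 genes on the array. They were chosen by symbol, with earlier results of these data known. Each was read from the probe set annotated to it alone that had the highest mean over the 8 arrays, and 33 of the 34 passed the filter on low values. The exception was Tmed2, a cargo receptor of transport vesicles, whose only probe set lay under the filter in every array, with group means of 4.29 to 4.46 on the log2 scale.

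RNA came from CT26, an established mouse colon tumour line labelled as epithelial, and from RAW264, an established mouse macrophage line, called RAW here. The 4 groups were CT26 alone, CT26 in co-culture, RAW alone and RAW in co-culture. In co-culture the CT26 cells lay in the well, in 1.5 ml, and the RAW cells on a porous insert above them, in 0.5 ml, joined 8 hours after seeding, so that soluble molecules but not cells could cross. How long the cells then stayed together is not given in the sources used here. Nor is it given whether cells grown alone had an empty insert or well. The co-culture differences below may therefore include a difference in set-up, which was not tested. Each line is a single established line, RAW cells were lysed on the insert while CT26 cells were lifted with trypsin, and the whole experiment was carried out on 2 occasions, giving 2 arrays per group. No p-value below covers more than the spread of samples from those 2 occasions.

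Each of the 12 macrophage markers was called higher in RAW than in CT26 without co-culture (median 5.51 log2 units). The epithelial label of CT26 held in part. Of 8 epithelial markers 6 were tested and 3 of those were higher in CT26. These were Krt20, at 11.54 in CT26 alone, Krt18, at 10.19, and Tjp1, at 11.64. Epcam, Krt8 and Cldn4 were not called, with RAW alone minus CT26 alone at 0.01, -0.13 and -0.07. Cdh1, the epithelial cadherin, was under the filter in every array and Cldn7 passed it in no group. Of 8 mesenchymal markers 6 were tested and 5 of those were higher in CT26, including the collagen gene Col1a2 at 13.55. Array medians lay between 5.88 and 5.94 log2 units.

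Secreted and membrane proteins enter the endoplasmic reticulum through a translocon, are folded there by chaperones and disulphide isomerases, and are sent on to the Golgi or, where folding fails, back to the cytosol for destruction by the proteasome, a route called ERAD. When unfolded proteins build up, the membrane sensors IRE1, ATF6 and PERK start the unfolded protein response. IRE1, encoded by Ern1, cuts Xbp1 mRNA so that it codes for an active transcription factor, and ATF6 is cut in the Golgi to release another. Both factors raise transcription of chaperone and ERAD genes. Macrophages secrete many proteins, among them lysozyme and cytokines, and so rely on this machinery. Whether secretion bears on any difference between the lines below was not tested. The arrays measured the amount of Xbp1 mRNA, not its cutting, and they measured no protein.

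The promoters of several of these genes hold letters through which this response is known to act. The endoplasmic reticulum stress element, ERSE, was searched as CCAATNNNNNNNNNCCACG on both strands of the RefSeq windows of assembly GRCm38.p6, from 250 bases before to 50 bases after the gene start. Of the 34 genes, 27 had such a window. ERSE occurred in 9 of these 27 windows (33.3%) and in those of 37 of all 27025 genes with a window (0.137%). The 9 genes were Hspa5, Hsp90b1, Dnajc3, Calr, Canx, Pdia6, Creld2, Syvn1 and Derl3. The related ERSE-II, which is ATTGG and CCACG parted by 1 base, occurred in 2 of the 27 (7.41%), those of Herpud1 and Dnajb11, against 12 of all genes (0.0444%). The UPRE core TGACGTG occurred in 2 of the 27 (7.41%), those of Hspa5 and Txndc5, against 601 of all genes (2.22%). These are matches of letters and not shown to be bound sites in these cells, and the genes were not drawn from promoters at random. The letters were already known from genes of this response, so the shares describe the list and test nothing. Stretches around the match are given for 6 genes whose transcripts the results below turn on, read along the gene's own strand, with the matching letters in capitals. In Creld2 the element lies on the opposite strand and so reads CGTGG first.
Hspa5: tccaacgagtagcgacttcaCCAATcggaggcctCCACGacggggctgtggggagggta
Dnajc3: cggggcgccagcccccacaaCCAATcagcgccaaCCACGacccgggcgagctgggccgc
Canx: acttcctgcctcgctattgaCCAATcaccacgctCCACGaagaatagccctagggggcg
Pdia6: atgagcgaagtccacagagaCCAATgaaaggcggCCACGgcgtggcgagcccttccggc
Creld2: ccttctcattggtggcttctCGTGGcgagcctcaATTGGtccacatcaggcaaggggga
Herpud1: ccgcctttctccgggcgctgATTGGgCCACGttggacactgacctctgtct
In GRCm38.p6 the Hspa5 stretch lies at chr2:34772005-34772063 on the plus strand, with the element 65 to 47 bases before the gene start. The Dnajc3 stretch lies at chr14:118937807-118937865 (plus), the Canx stretch at chr11:50325780-50325838 (minus) and the Pdia6 stretch at chr12:17266471-17266529 (plus). The Creld2 stretch lies at chr15:88819500-88819558 (plus) and the Herpud1 stretch at chr8:94386357-94386407 (plus).

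The lines were compared first when each was grown alone. RAW cells held more mRNA of much of the folding and degradation machinery than CT26 cells: 13 of the 33 tested genes were higher in RAW and 1, Ern1, was lower (limma, adjusted p under 0.05), against 34.6% of all tested genes called in either direction, 17.0% higher and 17.6% lower. The median difference over the 33 was 0.42 log2 units, against -0.05 over all 13196 tested genes. The counts by role that follow stand against the same 17.0% higher and 17.6% lower. All 4 RAW arrays stood above all 4 CT26 arrays for 18 of the 33 genes (54.5%, against 24.0% of all genes) and below them for 2 (6.06%, against 25.9%). In bulk RNA of a line, more mRNA of a gene in each cell and more cells expressing it cannot be told apart. The lines also differ in harvest and in culture volume, which cannot be told apart from the line.

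**Figure D1:**
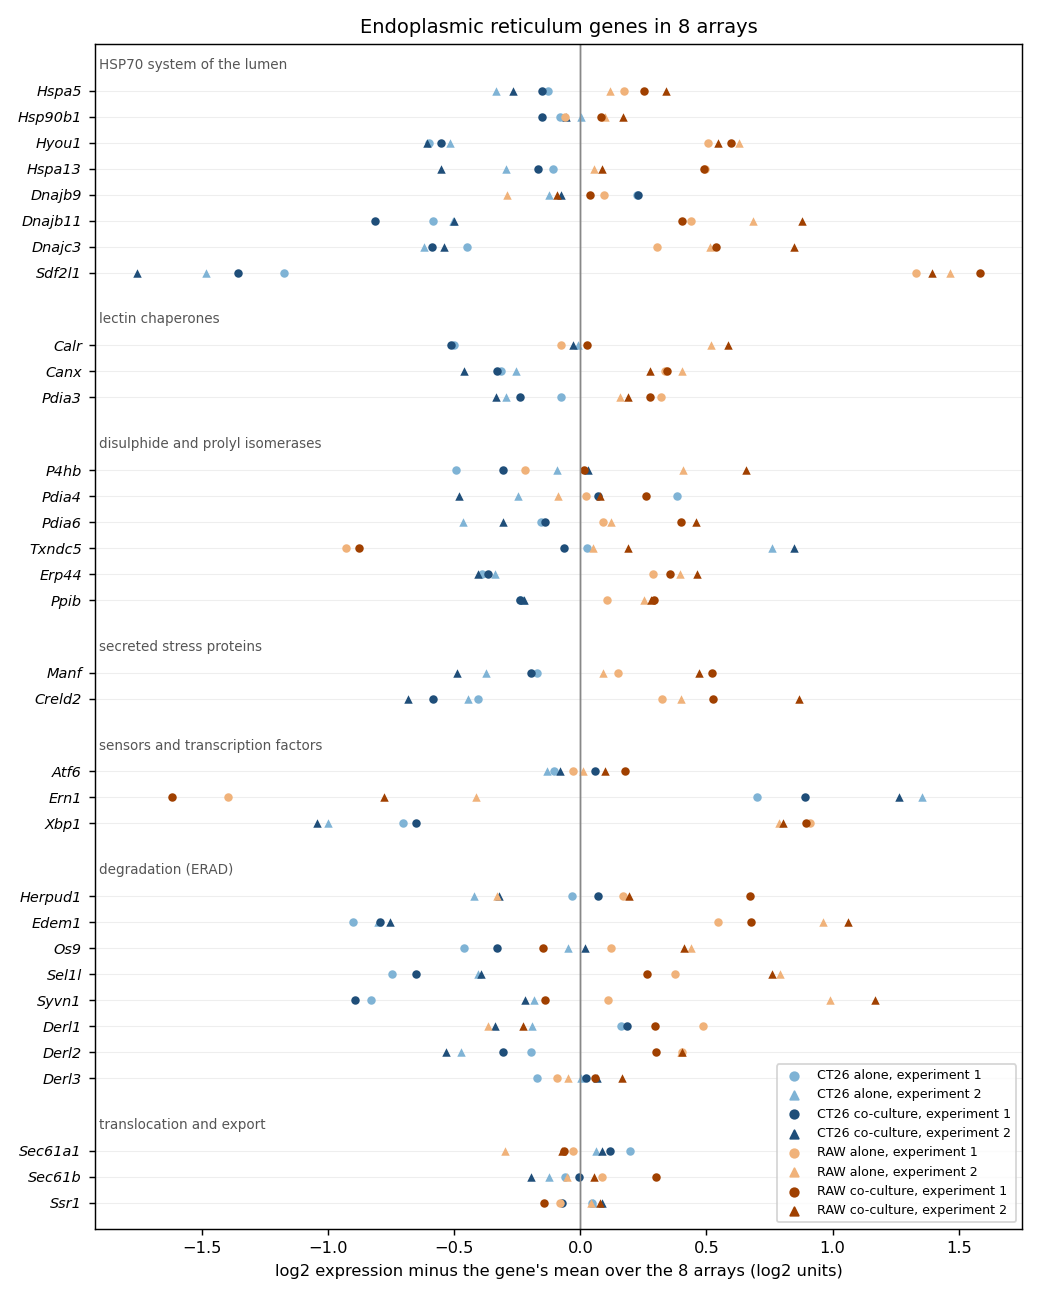
Log2 expression of the 33 tested genes in each of the 8 arrays, minus the gene's own mean over the arrays (log2 units), in rows by role; blue points are CT26 and orange points RAW, light alone and dark in co-culture, circles the first and triangles the second experiment. For Sdf2l1, Xbp1 and Edem1 the RAW arrays lie far to the right of the CT26 arrays, and for Ern1 to the left.

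The HSP70 system of the lumen, in which the chaperone BiP (Hspa5) works with co-chaperones and exchange factors, had 4 of 8 genes higher in RAW. The largest difference of all 33 genes belonged to Sdf2l1, which encodes a partner of the J-protein ERdj3. Sdf2l1 read 8.47 and 8.16 in CT26 alone and 10.98 and 11.11 in RAW alone, in log2 units and in the order of the experiments. No RAW array overlapped the CT26 arrays, and the difference was 2.73 ± 0.18 (SE; 6.62-fold, adjusted p = 3.58e-05). Hyou1, a large HSP70-type chaperone that also exchanges nucleotide on BiP, read 10.89 and 10.98 in CT26 alone and 12.00 and 12.12 in RAW alone, a difference of 1.13 ± 0.11 (adjusted p = 0.00027). Dnajb11, which encodes ERdj3 itself, differed by 1.11 ± 0.20 (adjusted p = 0.00477), and Dnajc3, the J-protein P58IPK, by 0.94 ± 0.15 (adjusted p = 0.00293). For Dnajc3 the call rests on the choice of probe set: averaged over all its probe sets the difference was 0.23 (adjusted p = 0.17).

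BiP itself was less separated. Hspa5 read 14.00 and 13.80 in CT26 alone and 14.30 and 14.25 in RAW alone, so the groups did not overlap, but the difference of 0.38 ± 0.12 did not pass the test (adjusted p = 0.0544). It passed with the experiment as a block within each line (adjusted p = 0.00815). Hsp90b1, which encodes GRP94, the HSP90 of the lumen, differed by 0.06 ± 0.12, and Dnajb9, another J-protein, by -0.15 ± 0.20. Hspa13, an HSP70 relative, differed by 0.47 ± 0.22 (adjusted p = 0.155) and passed with the block per line (adjusted p = 0.00318).

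Of the 3 lectin chaperones, which hold glycoproteins during folding, 2 were higher in RAW. Canx, the membrane-bound calnexin, read 12.31 and 12.36 in the CT26 arrays and 12.95 and 13.02 in the RAW arrays. The RAW arrays stood clear of the CT26 arrays, by 0.65 ± 0.11 (adjusted p = 0.004). Pdia3, the disulphide isomerase that calnexin and calreticulin recruit, differed by 0.42 ± 0.13 (adjusted p = 0.0452), a call that ended when any of the 8 arrays was left out, with adjusted p of 0.0638 to 0.246. Calr, soluble calreticulin, differed by 0.47 ± 0.31 and did not pass (adjusted p = 0.29), though it did with the block per line (adjusted p = 0.002).

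Among the 6 disulphide and prolyl isomerases, Erp44 and Ppib were higher in RAW. Erp44, which retrieves unassembled proteins from the early Golgi, differed by 0.71 ± 0.11 (adjusted p = 0.00275), and Ppib, a cyclophilin that turns proline bonds, by 0.41 ± 0.11 (adjusted p = 0.0262). The Ppib call ended without either CT26 alone array (adjusted p = 0.117 and 0.115), without RAW alone of the second experiment (0.123) and without either CT26 co-culture array (0.0502). Txndc5 pointed the other way. It read 11.93 and 12.66 in CT26 alone and 10.97 and 11.95 in RAW alone, so that the line difference was about as wide as the gap between experiments and the group ranges overlapped slightly. Its difference of -0.83 ± 0.52 did not pass (adjusted p = 0.267) and did with the block per line (adjusted p = 0.000179). The main disulphide isomerase, P4hb, differed by 0.39 ± 0.30, Pdia6 by 0.42 ± 0.14 and Pdia4 by -0.10 ± 0.26, none of them past the threshold. With the block per line P4hb (adjusted p = 0.00552) and Pdia6 (adjusted p = 0.00489) passed.

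Both secreted stress proteins were higher in RAW in each experiment. Creld2 read 10.64 and 10.60 in CT26 alone and 11.37 and 11.44 in RAW alone, a difference of 0.79 ± 0.14 (adjusted p = 0.005). Manf differed by 0.39 ± 0.14 and missed the threshold (adjusted p = 0.075), and passed with the block per line (adjusted p = 0.00537).

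The sensors and transcription factors split. Xbp1 read 11.29 and 11.00 in CT26 alone and 12.91 and 12.79 in RAW alone. Every RAW array was well above every CT26 array, with a difference of 1.70 ± 0.17 (3.25-fold, adjusted p = 0.000303). Ern1, the kinase and nuclease that processes Xbp1 mRNA, ran opposite, at 9.55 and 10.21 in CT26 alone and 7.45 and 8.44 in RAW alone. Its difference was -1.93 ± 0.42 (3.82-fold lower in RAW, adjusted p = 0.0109). Leaving out CT26 alone of the second experiment ended that call (adjusted p = 0.0714), as did leaving out RAW alone of the first (adjusted p = 0.0542). Its other bright probe sets gave -0.83 and -0.50, and averaged over all 5 probe sets the difference was -0.78 (adjusted p = 0.00165), a smaller difference of the same sign. Atf6 differed by 0.11 ± 0.11.

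In ERAD, 3 of 8 genes were higher in RAW. Edem1, which sorts misfolded glycoproteins for disposal, read 9.86 and 9.96 in CT26 alone and 11.31 and 11.72 in RAW alone. The difference was 1.61 ± 0.19 (3.04-fold, adjusted p = 0.000604). Its other probe set gave a smaller difference, 0.47 and 0.82 in the experiments, and averaged over both the difference was 1.12 (adjusted p = 0.000846). Sel1l, the scaffold of the HRD1 ubiquitin ligase, differed by 1.16 ± 0.23 (adjusted p = 0.00805) and Derl2, a membrane channel component of the same route, by 0.73 ± 0.14 (adjusted p = 0.00709). The Sel1l call ended without CT26 alone of the first experiment (adjusted p = 0.0553) and that of Derl2 without CT26 alone of the second (adjusted p = 0.0551). Syvn1, which encodes HRD1, differed by 1.06 ± 0.51 without passing (adjusted p = 0.161) and passed with the block per line (adjusted p = 0.000198). The paralogues Derl1 and Derl3 differed by 0.07 ± 0.34 and 0.01 ± 0.12, and Herpud1, which helps assemble the ligase complex, by 0.15 ± 0.26. Derl3 was dim, with group means of 6.10 to 6.29 beside array medians of 5.88 to 5.94, so its differences say little. Os9, a lectin that reads trimmed glycans, differed by 0.54 ± 0.25 (adjusted p = 0.15, and 0.00224 with the block per line).

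Of the translocation genes none passed. Sec61a1, the pore of the translocon, differed by -0.29 ± 0.13 (adjusted p = 0.135, and 0.0355 with the block per line), and its partner Sec61b by 0.11 ± 0.14. For Ssr1, a translocon-associated subunit, the brightest probe set gave -0.07 ± 0.13 while the other 3 gave 0.78, 0.63 and 0.72. Averaged over its probe sets Ssr1 was 0.52 higher in RAW (adjusted p = 0.00714).

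With the experiment as a block, 21 of the 33 genes were higher in RAW alone and 3 lower, whether the block was shared by the lines (52.9% of all genes called, 25.5% higher and 27.4% lower) or separate in each (58.6%, 28.3% higher and 30.4% lower). Without any test, 25 were higher in RAW in both experiments and 5 lower, against 37.4% and 45.3% of all genes. In co-culture 16 of the 33 genes were higher in RAW and 1 lower (34.8% of all genes called, 17.7% higher and 17.0% lower), and 14 were called in both line comparisons, as were 30.3% of all genes. With the block per line these became 25 and 2 (58.0%, 29.0% higher and 28.9% lower), with the shared block 23 and 2 (52.1%, 26.2% higher and 25.9% lower). In both experiments 28 were higher in RAW and 5 lower, against 39.2% and 44.4%. The genes that passed with the block per line and not without a block were Hsp90b1 (0.23, adjusted p = 0.0481), Hspa13 (0.65, 0.00065), Calr (0.58, 0.000741), P4hb (0.47, 0.00207), Pdia4 (0.37, 0.00706), Herpud1 (0.56, 0.000842), Os9 (0.29, 0.0355), Syvn1 (1.07, 0.000185) and Sec61b (0.28, 0.0295) on the higher side and Txndc5 (-0.74, 0.000342) on the lower, and all but Hsp90b1 and Pdia4 also passed with the shared block. The median difference was 0.56 log2 units. Sdf2l1 differed by 3.05 ± 0.18 (8.26-fold, adjusted p = 2.09e-05), Xbp1 by 1.70 ± 0.17 (adjusted p = 0.000307), Creld2 by 1.33 ± 0.14 (adjusted p = 0.000399) and Ern1 by -2.28 ± 0.42 (adjusted p = 0.00527). Hspa5, Manf and Pdia6 passed here and not in the cells grown alone, at 0.50, 0.84 and 0.65. Of these, the Hspa5 call ended without any single co-culture array (adjusted p of 0.0519 to 0.106) and that of Pdia6 without the co-culture array of either line from the second experiment (0.0549 and 0.0718). Averaged over probe sets, the Hspa5 difference in co-culture was 0.32 (adjusted p = 0.104) and that of Dnajc3 was 0.34 in place of 1.26 (adjusted p = 0.06), so neither passed. The change between the comparisons is the difference of the co-culture effects, tested further on.

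The second question was what co-culture did to these genes in RAW cells. None of the 33 passed the test (limma, adjusted p under 0.05), in a comparison where 0.25% of all tested genes did (0.167% higher, 0.0834% lower), and 1, Manf, had an unadjusted p under 0.05 (694 of all genes had). The differences were small and leaned upward: 17 of the 33 genes were higher in co-culture in both experiments and 3, Ern1, Os9 and Sel1l, were lower in both, against 32.5% and 29.1% of all genes. The median difference was 0.09 log2 units, 0.08 in the first experiment and 0.10 in the second, against 0.01 over all genes. With the shared block none passed (1.11% of all genes, 0.508% higher and 0.599% lower), and with the block per line 1 of the 33 did (3.56%, 1.55% higher and 2.01% lower).

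**Figure D2:**
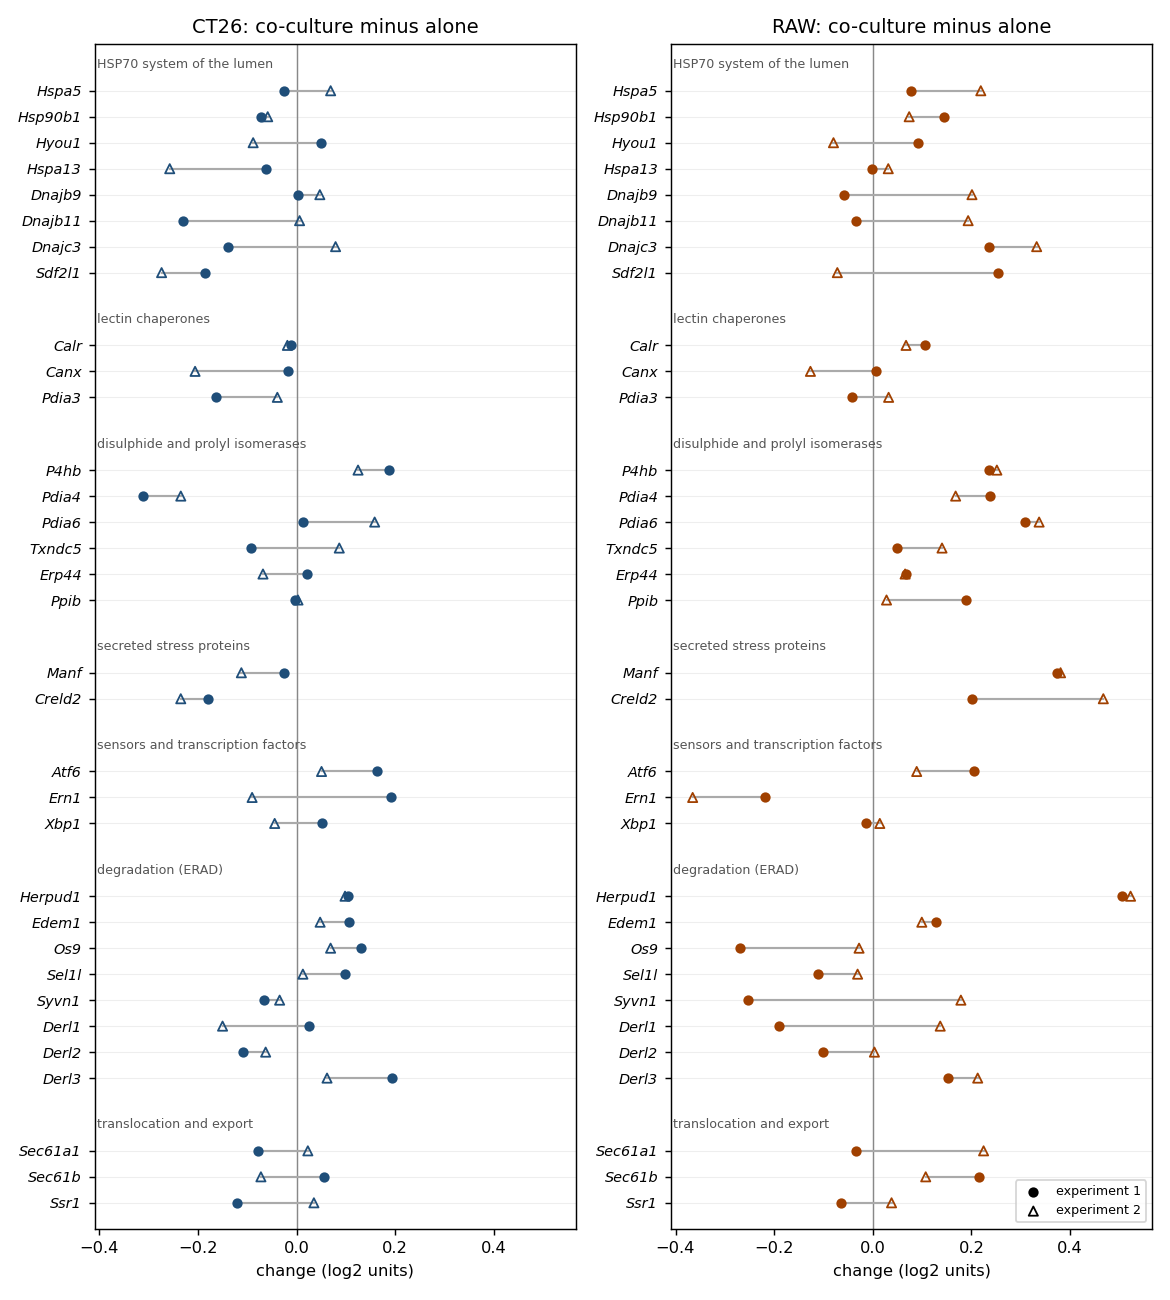
Log2 difference between co-culture and alone for each of the 33 tested genes, in CT26 (left) and RAW (right), with a circle for the first and a triangle for the second experiment joined by a grey line. In RAW the mean differences of Herpud1, Manf, Creld2 and Pdia6 are the highest, and in CT26 the means stay between -0.27 and 0.16.

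The gene that passed with the block per line was Herpud1. It read 11.75 and 11.26 in RAW alone and 12.26 and 11.78 in RAW in co-culture. The co-culture array was higher in each experiment, by 0.51 and 0.52. The groups narrowly missed overlapping (11.78 in co-culture against 11.75 alone), as both arrays of the second experiment were lower. The difference was 0.51 ± 0.26 (1.43-fold), with an adjusted p of 1.00 by limma without a block, 0.0567 with the shared block and 0.0221 with the block per line.

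The secreted proteins Manf and Creld2 came next. Manf, a protein retained by BiP and released under stress, read 13.47 and 13.42 in RAW alone and 13.85 and 13.80 in co-culture. These groups did not overlap, and the difference was 0.38 ± 0.14 (adjusted p = 0.852, and 0.0639 with the block per line). Creld2 read 11.37 and 11.44 alone and 11.57 and 11.91 in co-culture, 0.33 ± 0.14 apart (adjusted p = 0.962, and 0.132 with the block per line).

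All 6 isomerases were higher in co-culture in both experiments, none past the threshold. Pdia6 read 12.86 and 12.89 in RAW alone and 13.16 and 13.22 in co-culture, without overlap, 0.32 ± 0.14 apart (adjusted p = 0.993). P4hb differed by 0.24 ± 0.30, Pdia4 by 0.20 ± 0.26, Ppib by 0.11 ± 0.11, Txndc5 by 0.09 ± 0.52 and Erp44 by 0.07 ± 0.11. Their standard errors differed several-fold, being widest for the genes that shifted most between the experiments.

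Among the chaperones, Hspa5 differed by 0.15 ± 0.12 (0.08 and 0.22 in the experiments), Hsp90b1 by 0.11 ± 0.12 and Dnajc3 by 0.28 ± 0.15. For Dnajc3 3 of its other 4 probe sets were lower in co-culture, so its direction rests on the brightest. Sdf2l1, so different between the lines, differed by 0.09 ± 0.18 with co-culture, and the lectin chaperones by -0.06 to 0.09. Xbp1 had equal group means to 2 decimals, 12.85 and 12.85, and Atf6 differed by 0.15 ± 0.11. Ern1 read 7.45 and 8.44 alone and 7.23 and 8.07 in co-culture, -0.29 ± 0.42, although its other bright probe sets gave 0.35 and 0.13. In ERAD beside Herpud1, Edem1 differed by 0.11 ± 0.19, Derl3 by 0.18 ± 0.12, Os9 by -0.15 ± 0.25, and Sel1l by -0.07 ± 0.23.

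**Figure D3:**
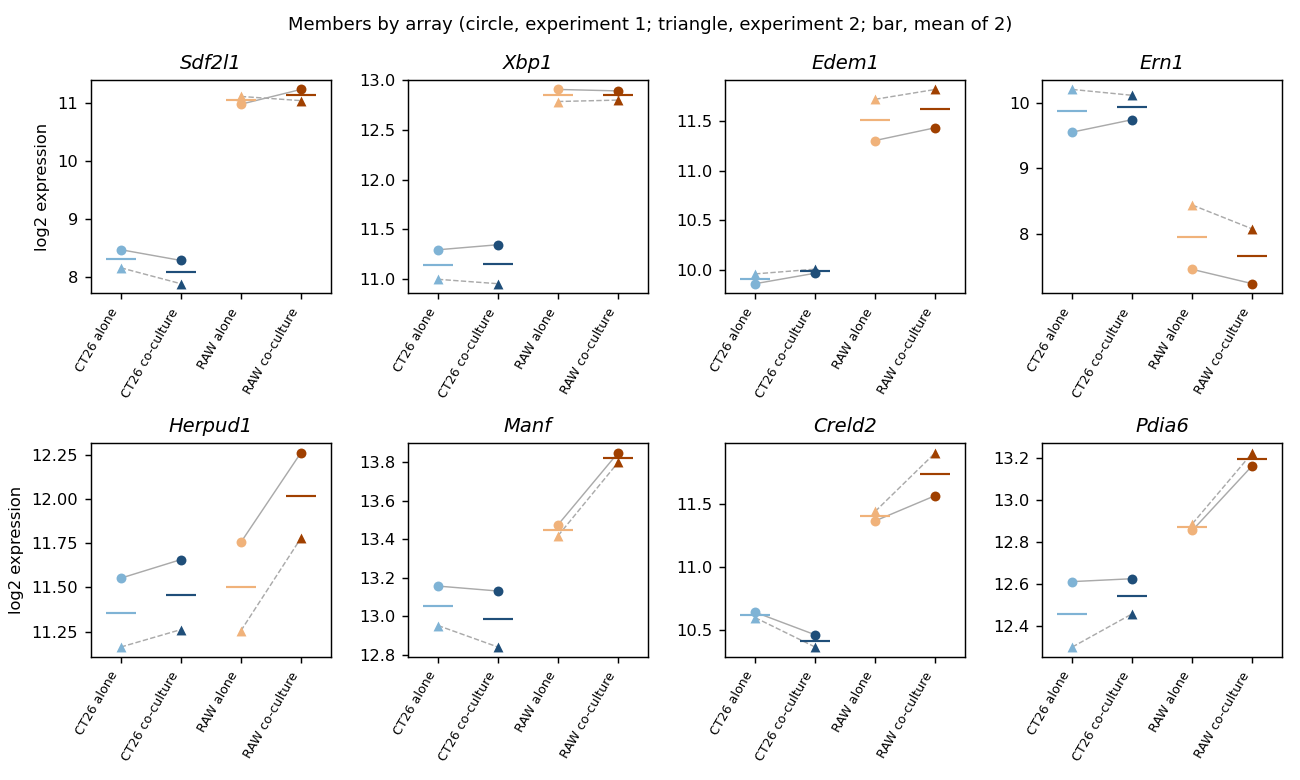
Log2 expression of 8 of the genes in the 8 arrays, with a circle for the first and a triangle for the second experiment, a bar at the mean of the 2 arrays, and lines joining arrays of the same experiment within a cell line; each panel has its own axis, which does not start at 0. The lines for Herpud1 and Manf in RAW run upward in both experiments, at a level that for Herpud1 was lower in the second experiment.

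The 11 genes with ERSE or ERSE-II in the promoter window included Herpud1, Creld2, Pdia6 and Dnajc3, while Manf had no window. Among the 11 genes 8 were higher in co-culture in each experiment and the median was 0.15 log2 units. Canx, Syvn1 and Dnajb11 were not, with mean differences of -0.06, -0.04 and 0.08. Dnajc3, among the 8, became -0.05 when averaged over its probe sets, and Derl3, also among them, lay little above the array medians in every group. Of the 16 genes with a window and no match, 7 were higher in each experiment, and the median was 0.07. Over all tested genes 32.5% were higher in each experiment, with a median of 0.01. No test was made of this difference.

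In CT26 cells none of the 33 genes passed in co-culture, with or without a block, where 0.0% of all genes did, and none had an unadjusted p under 0.05 (limma; 107 of all genes had). Of the 33, 9 were higher in both experiments and 11 lower, against 23.8% and 30.1% of all genes. The median difference was -0.02. P4hb had the highest, 0.16 ± 0.30, and Pdia4 the lowest, -0.27 ± 0.26, from 10.30 and 9.67 alone to 9.99 and 9.44 in co-culture, where the experiments differed by more than the conditions. Herpud1, at 11.55 and 11.16 alone and 11.66 and 11.26 in co-culture, differed by 0.10 ± 0.26. Manf differed by -0.07 ± 0.14, Creld2 by -0.21 ± 0.14 and Sdf2l1 by -0.23 ± 0.18.

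The co-culture effect in RAW minus that in CT26 tests whether the lines responded differently. None of the 33 genes passed, without a block (0.00758% of all genes did) or with the shared block (0.0834%, 0.0379% higher and 0.0455% lower) or the block per line (0.743%, 0.386% higher and 0.356% lower), and 1, Creld2, had an unadjusted p under 0.05 (328 of all genes had). The effect was the larger in RAW in both experiments for 25 of the 33 genes and the smaller for 3, against 34.1% and 26.7% of all genes, with a median of 0.10 log2 units. Creld2 gave 0.54 ± 0.20 (0.38 and 0.70 in the experiments), Pdia4 0.48 ± 0.36, Manf 0.45 ± 0.20 and Herpud1 0.41 ± 0.37, all at an adjusted p of 1.00. A different response of the lines was therefore not shown for any of these genes. With 2 arrays per group the standard errors of this difference ran from 0.16 to 0.73 log2 units.

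The 2 experiments differed for many of them. In all 4 groups 12 of the 33 genes were higher in the second experiment and 10 lower, together 66.7%, against 46.7% of all genes, and the mean shift was over 0.3 log2 units for 11 (33.3%, against 25.8% of all genes). Txndc5 was 0.92 higher in the second experiment, Syvn1 0.88, Ern1 0.71, Calr 0.53 and P4hb 0.50. Derl1 stood at -0.56 and Herpud1 at -0.44, both lower in the second experiment. These shifts enter the standard errors of the fit without a block.

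The 34 genes had 85 probe sets, and 9 had a single one. Where a gene had several they did not always give the same difference in RAW co-culture. For Sec61a1 the brightest gave -0.03 and 0.22 in the experiments, while each of the other 5 was higher in both, with means of 0.30 to 0.55. For Derl1 the brightest gave -0.19 and 0.14 and the other 3 gave means of 0.25 to 0.30. Averaged over its probe sets, with the block per line, Sec61a1 differed by 0.35 (adjusted p = 0.0741), Derl1 by 0.20 (0.203) and Herpud1 by 0.57 (0.0152), in a fit over 12481 genes that called 3.89% of them and was chosen after the data were seen. Manf has a single probe set, so its value stayed at 0.38, and its adjusted p in that fit, 0.0437, differs from the one above only through the other genes fitted with it. Averaged without the block, Sec61a1 did not pass (adjusted p = 0.902).

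**Figure D4:**
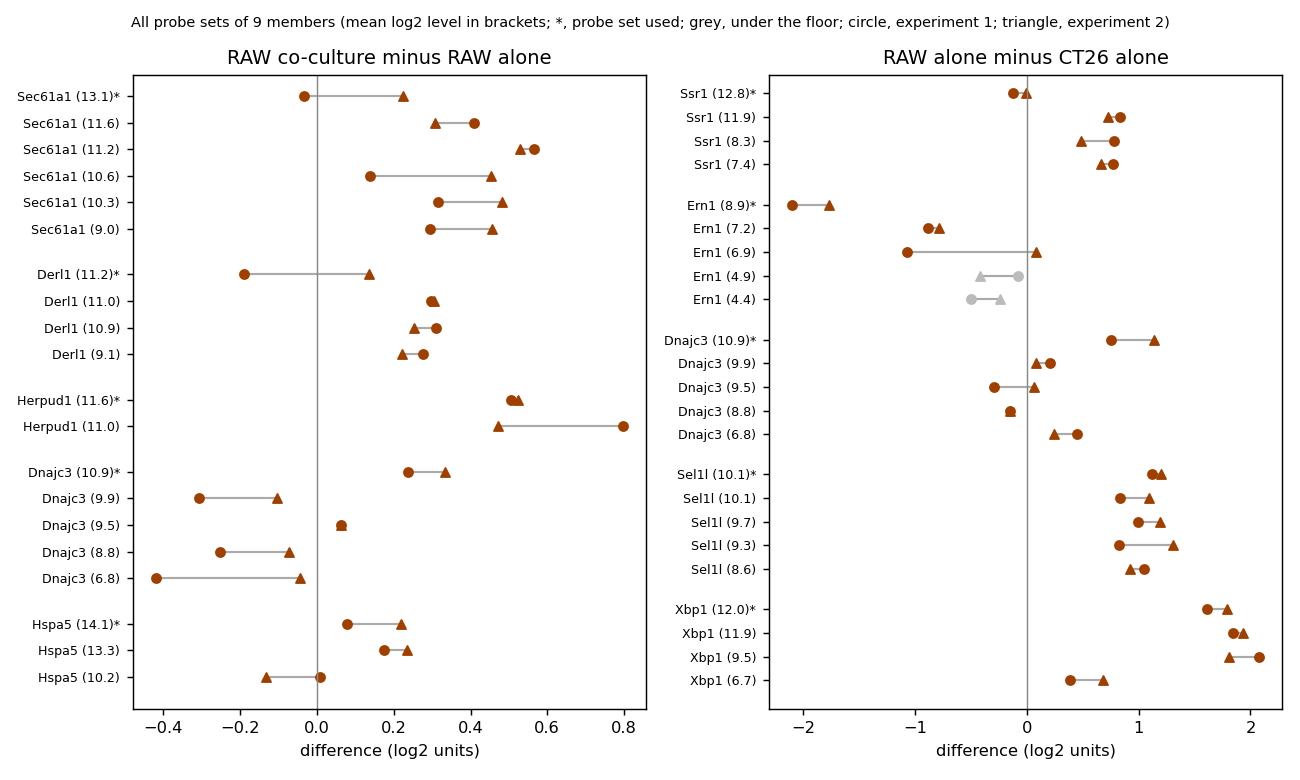
Log2 differences by probe set for 9 of the genes, with co-culture against alone in RAW on the left and RAW alone against CT26 alone on the right; circles are the first and triangles the second experiment, the star marks the brightest probe set, which was the one used, and grey marks those under the filter. On the left the other probe sets of Sec61a1 and Derl1 have higher means than the brightest and those of Dnajc3 lower ones, and on the right 3 probe sets of Ssr1 lie above 0 where the brightest does not.

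The rest of the pathway was read from a list of 133 other endoplasmic reticulum genes, all tested. Between the lines alone 24 of the 133 were higher in RAW and 23 lower, where 17.0% and 17.6% of all tested genes were, a similar share. The median was 0.09 log2 units, against 0.42 over the 33 genes above, a contrast between the lists that was not tested. The collagen chaperone Serpinh1 was -6.34 in RAW against CT26 and the retrieval receptor Kdelr3 -3.03, while the oxidase Ero1b was 2.83 higher in RAW. None of the 133 passed with co-culture in RAW or in CT26 without a block (0.25% and 0.0% of all genes did). With the block per line 2 passed in RAW, where 3.56% of all genes did. Fkbp11, a prolyl isomerase, read 9.52 and 9.53 alone and 10.08 and 9.93 in co-culture, 0.48 ± 0.11 apart (adjusted p = 0.344, and 0.0387 with the block). Atf4, the transcription factor downstream of PERK, read 12.55 and 12.14 alone and 12.93 and 12.60 in co-culture, 0.42 ± 0.18 apart (adjusted p = 0.963, and 0.0471 with the block). The largest statistics beside Fkbp11 in RAW were those of Creb3l2, a transcription factor of secretory cells, at -0.48 (adjusted p = 0.499), and Tmub1, a membrane protein of the degradation route, at 0.32 (adjusted p = 0.852). In CT26 they were those of the chaperone Clgn, 0.29, the enzyme Sumf1, -0.17, and the lectin Erlec1, -0.14, all at an adjusted p of 1.00. Clgn was dim, at 5.34 and 5.35 in CT26 alone, where the filter lay at 5.27 and 5.26.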

How the data were processed

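RNA of 8 samples, 5 µg each, was hybridised to single-colour Affymetrix arrays. The deposited values are log2 expression values that the authors computed by RMA (affy), per the submitters' processing notes. No version is named in the sources used here. Sorted values of the arrays lay within 0.158 log2 units of each other, so a change in total RNA would not be visible. Of the 45037 non-control probe sets, 34945 carried a single gene symbol, giving 18193 genes. Tested were the 13196 genes over the array's 40th percentile (5.21 to 5.28 log2 units) in both arrays of at least 1 group.

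Group means of the 4 groups were fitted with limma 3.58.1 in R 4.3.3 (4 residual degrees of freedom, two-sided tests, Benjamini-Hochberg adjustment over 13196 genes, threshold 0.05), after the script was tested on simulated data. Replicate numbers mark the 2 experiments, per the labels, and deviations of same-numbered arrays correlated at 0.484 to 0.765, so the numbers pair the samples. Blocks, shared or per line, were alternatives, as were other choices of probe set, filter, scaling and variance and leaving out each array. The shared block left 3 residual degrees of freedom and the block per line only 2. Genes outside the 34 were named as the 3 with the largest moderated statistics per comparison, plus any past the threshold. Atf4 passed only with a block and was named after its values were seen. The 34 genes and the lists were chosen with earlier results of these data known.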

Additional observations from a re-analysis of the deposited data

Results flagged for a closer look

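In 7 of the 33 genes the co-culture difference ran one way in RAW in both experiments and the other way in CT26 in both. The RAW effect minus the CT26 effect was 0.54 for Creld2, 0.48 for Pdia4, 0.45 for Manf, 0.17 for Hsp90b1 and 0.10 for Calr, which were higher in RAW and lower in CT26. It was -0.25 for Os9 and -0.13 for Sel1l, which ran opposite. Such a pattern in the first direction held for 15.2% of the 33 genes and 8.54% of all genes, and in the second for 6.06% and 5.67%. The difference itself was tested for each of the 7 and did not pass (limma, adjusted p = 1.00).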

How the results depend on the processing

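Each of the other settings tried kept 0 of the 33 genes called with co-culture in CT26 and in the difference between the lines. In RAW co-culture the replicate block per line called 1 gene higher (Herpud1) and the other settings with 1 probe set per gene, or without the block, 0. With averaged probe sets as well, a setting added after seeing the data, Herpud1 passed, and so did Manf, whose single probe set gave the same value beside a changed set of other genes. Over all genes, RAW co-culture gave 33 calls without a block, 146 with the shared block, 470 with the block per line, 20 with the most variable probe set, 4 from the RAW arrays alone and 2 to 30 when an array was left out. The difference between the lines gave 1, 11 with the shared block, 98 with the block per line, 4 with a variance trend and 0 to 2 with an array left out. Of the 133 other genes the block per line called 2 in RAW co-culture, against 3.56% of all genes.

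Between the lines alone, both blocks gave 21 of the 33 higher and 3 lower. Leaving out an array gave 10 to 12 higher and 0 to 1 lower. All genes called went from 4563 to 6978 (shared block) and 7735 (block per line), and the 133 other genes from 47 to 77 and 83, or 29 to 46 with an array left out. Between the lines in co-culture, both blocks gave 2 lower, and the block per line 25 higher. All genes called went from 4587 to 7652 with the block per line, and the other genes from 54 to 87 and 92, or 34 to 50 with an array left out.

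The median over the 33 genes in CT26 co-culture, -0.02, became 0.0097 after cyclic loess and -0.0081 with averaged probe sets, and -0.070 to -0.0049 with an array left out. In RAW co-culture it became 0.069 after cyclic loess and 0.034 to 0.16 with an array left out. Between the lines in co-culture, 0.56, it became 0.74 with the most variable probe set and 0.53 to 0.65 with an array left out. The cause was not tested.

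Among differences at least as large as their standard error, and for Ssr1, signs turned as follows. Dnajc3 in RAW co-culture became -0.050 with averaged probe sets, also with the block. Ssr1 between the lines became 0.52 (averaged) and 0.72 (most variable) alone, and 0.58 and 0.89 in co-culture. Pdia4 in CT26 co-culture ranged from -0.59 to 0.041 with an array left out. Beside the results, the blocked values of single genes are given where a block changed the call.

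The limit is the number of arrays. A difference of the size seen in RAW co-culture, mostly under 0.5 log2 units, lay within a few standard errors of the fit, whose median over all genes was 0.165 log2 units without a block and 0.0938 with the block per line. A missed threshold here does not show that a gene was unaffected.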
